A study of Mus musculus with 32 samples.

Results

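The effects of deleting a pair of Wnt co-factors were compared between intestinal adenomas and normal crypts. Of the 32 bead arrays of the series, 23 entered the comparison, all of batch 1. They were chosen by their labels and not by a measured value, though with earlier results of these data known. They comprised 9 crypt arrays and 14 adenoma arrays of mice aged 120 days. The study lists the wt mice as C57BL/6J and had back-crossed the floxed and knockout lines into C57BL/6 for several generations. Donor genome left in those lines was not tested for. Crypts had been released from intestinal fragments with EDTA and adenomas had been excised, and a sample typically pooled RNA extractions of 1 mouse. The 3 crypt groups were wt (villin.Cre/+), Pygo1/2 DKO (villin.Cre/+ with Pygo1-/- and Pygo2 LoxP/LoxP) and Bcl9/B9l DKO (villin.Cre/+ with B9l LoxP/LoxP and also Bcl9 LoxP/LoxP), with 3 arrays each. The 3 adenoma groups were ApcMin (ApcMin/+, replicates 1, 2, 3, 5, 7 and 9), ApcMin Pygo1/2 DKO (5 arrays) and ApcMin Bcl9/B9l DKO (3 arrays), and these DKO adenomas had the same alleles and villin.Cre/+ as the DKO crypts. Because villin drives Cre in the intestinal epithelium, the other cells of a sample keep the floxed genes, whereas Pygo1 is missing from all cells. The control adenomas carried no villin.Cre while the control crypts did, so Cre and DKO cannot be told apart within the adenomas. It is not stated whether separate mice gave the arrays of 1 group, and p-values therefore measure only the spread between these samples.

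Stem cells at the base of intestinal crypts depend on Wnt signals, which stabilise β-catenin and let it switch on genes through TCF factors. Bcl9 and B9l bind β-catenin and connect it to the PHD-finger proteins Pygo1 and Pygo2, which together help it to activate transcription. In ApcMin mice the remaining copy of the tumour suppressor Apc is lost in the adenoma cells, so that β-catenin stays active without a Wnt signal.

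The DKO effect is the difference between the normalised log2 level of a DKO group and that of its control, wt villin.Cre crypts for crypts and ApcMin adenomas for adenomas. The tissue difference is the effect in adenomas less the effect in crypts, computed for either DKO and as the average of both. A negative tissue difference thus means that the DKO went with a lower level in adenomas than its crypt effect would give. Differences are on the log2 scale and are followed by their standard error, and p-values are those of limma adjusted over 19981 probes. A call means an adjusted p under 0.01 for tissue differences and adenoma effects and under 0.05 for crypt effects. A probe counted as detected on an array if its detection p-value was under 0.01. Where no array of the lower group detected a probe, the fold is given as a bound ("at least") against the lowest detected signal of those arrays.

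Mean signal per array ran from 307 to 445 and between 12913 and 16319 probes were detected. Of the variance, 65.6% lay along the first principal component, which placed the crypts between -108 and -81.3 and the adenomas between 48 and 78.9. Along the second (6.37%), Bcl9/B9l DKO adenomas lay at 41 to 64.5, beyond the Pygo1/2 DKO adenomas (-6.51 to 7.78) and the ApcMin adenomas (-38.8 to -6.52). Pygo2 fell by 1.47 ± 0.20 in Pygo1/2 DKO crypts (0.000384) and by 1.20 ± 0.15 in Pygo1/2 DKO adenomas (4.83e-05), whereas Pygo1 was detected on 1 array alone. The probes of Bcl9 and Bcl9l (B9l) did not fall in Bcl9/B9l DKO samples, and as their position relative to the deleted exons is not known here, they check nothing. Xist, which is transcribed from the inactive X chromosome of females, was detected in all ApcMin and Pygo1/2 DKO adenomas (8.47 to 10.27) and on no other array. The Y-linked Eif2s3y was detected in all crypts and in the Bcl9/B9l DKO adenomas (6.72 to 10.29) and in no other adenoma. Sex thus differed between the ApcMin control and the crypts and changed together with Bcl9/B9l DKO among the adenomas, so that these cannot be told apart. The mean level of 19 pancreatic acinar genes was 14.19, 6.05 and 11.24 in Bcl9/B9l DKO adenoma replicates 1, 2 and 3 and between 5.99 and 6.76 on all other arrays. Of these 19 genes, 15 rose in Bcl9/B9l DKO adenomas (1.36% of all probes). None had a called tissue difference, yet the Bcl9/B9l tissue differences had a median of 5.07, with 18 of the 19 above 0. The part of these genes in the results was not tested.

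Few probes had a called difference between the 2 tissues when both DKOs were averaged. The averaged tissue difference was called for 3 probes with a positive value (0.015% of 19981) and 18 with a negative value (0.0901%), and 3 of these 21 were unnamed here. At an adjusted p under 0.05 the counts were 93 (0.465%) and 176 (0.881%). Among the 21 called probes, 7 were detected in no crypt array, so that no crypt effect could be seen for them. A further 11 had effects of opposite sign in the tissues, 9 of them with a higher value in DKO crypts and a lower value in DKO adenomas, and 3 pointed the same way in both tissues. The split was similar among the 269 probes under 0.05, with 55 not detected in crypts, 195 of opposite sign (120 higher in DKO crypts and lower in DKO adenomas, 75 the reverse) and 19 of the same sign. Selecting probes by a large tissue difference itself favours effects of opposite sign, so this split partly follows from the selection. The share of opposite signs over all probes was not computed. The median averaged difference over all probes was 0.03. The named probes with a negative averaged difference fell into genes of the interferon response and antigen presentation (Igtp, Irgm2, Usp18, Oas2 and Cd74), mast cell and secreted defence genes that were absent from crypts (Cpa3, Bpifb5), and Adcy4, Tlcd2, Mdm2, AY761185 and Xist. Myo18b, Sis and 1700057G04Rik had a positive averaged difference. Of the 21 called probes, 18 were also called for Bcl9/B9l DKO by itself and 6 for Pygo1/2 DKO. A call in the average is thus not a call in both DKOs. For Bpifb5 the difference was 0.37 for Pygo1/2 DKO and -6.3 for Bcl9/B9l DKO. The same 2 values were 0.66 and -4.36 for Xist and -4.63 and 0.2 for AY761185.

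**Figure D1:**
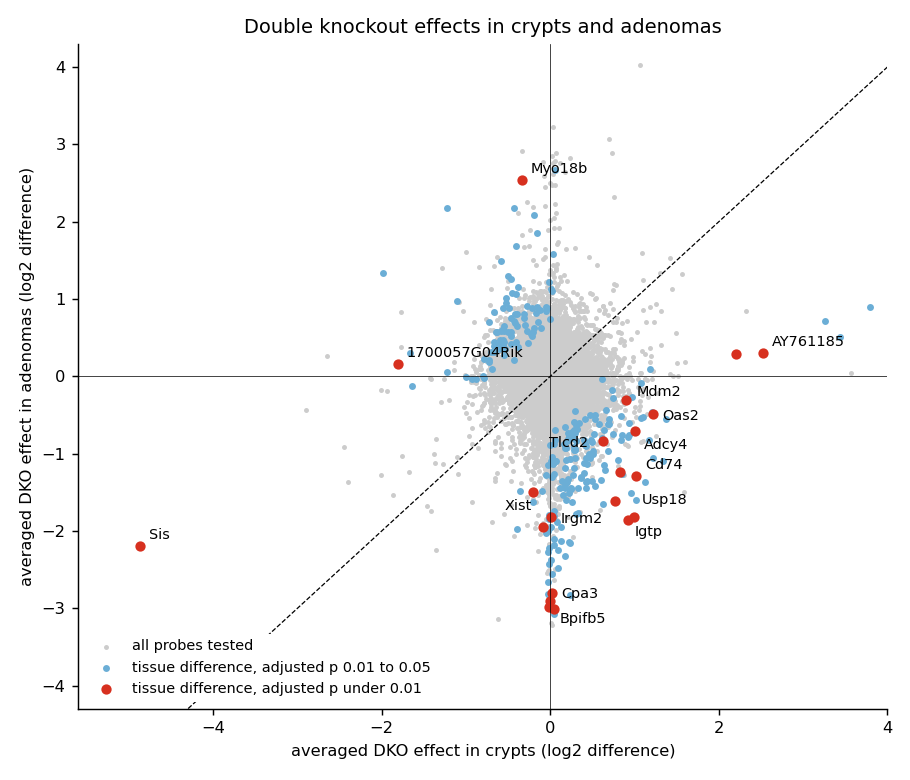
Each point is 1 of 19981 probes, with the averaged DKO effect in crypts on the x axis and that in adenomas on the y axis, both as log2 differences from the control of the same tissue. Red points have an adjusted p under 0.01 for the tissue difference and blue points one between 0.01 and 0.05, the dashed line marks equal effects in both tissues, and 3 probes lie outside the axes; most coloured points lie along the vertical axis near a crypt effect of 0 or in the upper left and lower right of the plot.

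Igtp and Irgm2 encode immunity-related GTPases that are induced by interferon and act on membranes around intracellular pathogens. Both lie next to each other on chromosome 11, and their promoters are shown because they share the letters to which interferon-activated factors are known to bind. The sequences are from RefSeq (GRCm38.p6), plus strand, from 250 bases before to 50 bases after the start of the gene, chr11:58199306-58199605 for Igtp and chr11:58214727-58215026 for Irgm2. Capitals mark matches to a GAS-type motif (TTCNNNGAA) and an ISRE-type motif (GAAANNGAAA), searched on both strands; within the capitals these motifs do not overlap.
Igtp: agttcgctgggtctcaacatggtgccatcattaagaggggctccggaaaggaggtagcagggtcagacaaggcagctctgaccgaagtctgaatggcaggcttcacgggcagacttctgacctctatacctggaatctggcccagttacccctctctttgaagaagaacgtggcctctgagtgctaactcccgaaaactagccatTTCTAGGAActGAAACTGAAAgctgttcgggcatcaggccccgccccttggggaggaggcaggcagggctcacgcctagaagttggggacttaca
Irgm2: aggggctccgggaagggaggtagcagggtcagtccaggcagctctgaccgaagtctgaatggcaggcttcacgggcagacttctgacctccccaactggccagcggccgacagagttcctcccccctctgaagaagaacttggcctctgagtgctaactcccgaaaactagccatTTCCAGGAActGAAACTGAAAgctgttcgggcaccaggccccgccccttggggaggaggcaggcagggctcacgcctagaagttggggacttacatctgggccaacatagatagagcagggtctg
The ISRE-type match began 34 bases before the start of Igtp and 64 before that of Irgm2, and the GAS-type match 45 and 75 bases before it. Over the 21 bases from the first to the last capital the genes differed at 1 base, and the longest stretch identical in both windows was 61 bases. Of 32851 mouse promoters of the same length, 3.44% held the ISRE-type letters and 8.3% the GAS-type letters. Among the 14 listed interferon response genes with a promoter entry, 8 (57.1%) held the first and 4 (28.6%) the second, and among the 11 genes called in the averaged difference with an entry 2 (18.2%) held each, namely Igtp and Irgm2. A match is a description of the letters and not evidence of binding. Usp18 and Oas2 had no entry in the promoter table.

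Igtp was measured at 8.56, 8.31 and 8.75 in wt villin.Cre crypts, at 8.89, 9.37 and 10.12 in Pygo1/2 DKO crypts and at 9.40, 9.65 and 9.36 in Bcl9/B9l DKO crypts. In ApcMin adenomas it ran from 8.07 through a median of 8.87 to 10.39, against 8.46, 7.16, 7.26, 7.69 and 7.93 in Pygo1/2 DKO adenomas and 6.84, 6.74 and 7.23 in Bcl9/B9l DKO adenomas. All 6 DKO crypts thus lay above all wt crypts, and all 8 DKO adenomas except Pygo1/2 DKO replicate 1 lay below all ApcMin adenomas. The averaged tissue difference of Igtp was -2.78 ± 0.48 (0.009), made up of -1.86 ± 0.30 in adenomas (0.000433) and 0.92 ± 0.38 in crypts (0.7). It was -2.40 ± 0.55 for Pygo1/2 DKO (0.0514) and -3.17 ± 0.58 for Bcl9/B9l DKO (0.00579). Only the adenoma side passed by itself, and of the single DKOs only Bcl9/B9l.

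Irgm2 stood at 8.46, 7.71 and 8.32 in wt villin.Cre crypts, at 8.34, 8.96 and 9.50 in Pygo1/2 DKO crypts and at 8.95, 9.14 and 8.70 in Bcl9/B9l DKO crypts. In ApcMin adenomas Irgm2 ran from 8.87 through 9.72 to 10.65, against 9.07, 8.40, 8.99, 8.76 and 8.79 in Pygo1/2 DKO and 7.13, 7.88 and 7.58 in Bcl9/B9l DKO adenomas. The Bcl9/B9l DKO groups did not overlap their controls in either tissue, whereas Pygo1/2 DKO overlapped wt crypts at replicate 1 and ApcMin adenomas at replicates 1 and 3. The averaged tissue difference was -2.38 ± 0.37 (0.00348), with -1.61 ± 0.23 in adenomas (0.000147) and 0.77 ± 0.29 in crypts (0.628).

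Usp18, a protease that removes the ubiquitin-like protein Isg15 and restrains interferon receptor signalling, followed the same pattern. Its levels were 9.44, 9.02 and 9.45 in wt villin.Cre crypts, 9.89, 10.10 and 10.90 in Pygo1/2 DKO crypts and 10.17, 10.38 and 10.38 in Bcl9/B9l DKO crypts. In ApcMin adenomas Usp18 ran from 8.03 through 9.90 to 10.15, with 9.09, 7.26, 7.92, 8.32 and 8.66 in Pygo1/2 DKO and 6.76, 7.79 and 7.21 in Bcl9/B9l DKO adenomas. DKO crypts lay above all wt crypts and Bcl9/B9l DKO adenomas below all ApcMin adenomas, of which replicate 7 (8.03) stood apart from the rest (9.48 or more) and below 3 Pygo1/2 DKO adenomas. For Usp18 the averaged difference came to -2.82 ± 0.49 (0.00976), and a second, dimmer probe gave -2.28 ± 0.51 (0.0308).

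Oas2, one of the oligoadenylate synthetases that sense double-stranded RNA, rose in DKO crypts when both DKOs were averaged. It was below detection in all wt villin.Cre crypts (5.00, 4.96 and 5.54) and detected in every DKO crypt, at 6.10, 6.31 and 6.79 in Pygo1/2 DKO and 6.33, 6.49 and 6.30 in Bcl9/B9l DKO. Among adenomas Oas2 was detected in 3 of 6 ApcMin arrays (4.73 through 5.40 to 5.80) and in none of the DKO arrays (4.61 to 5.39). Its averaged tissue difference was -1.72 ± 0.29 (0.00618), with 1.22 ± 0.23 in crypts, a called rise (0.0178), and -0.49 ± 0.18 in adenomas (0.0907). Against the lowest detected signal, Oas2 was at least 1.47-fold higher in Pygo1/2 DKO crypts (0.0537) and at least 1.45-fold in Bcl9/B9l DKO crypts (0.0639), neither of which passed by itself.

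**Figure D2:**
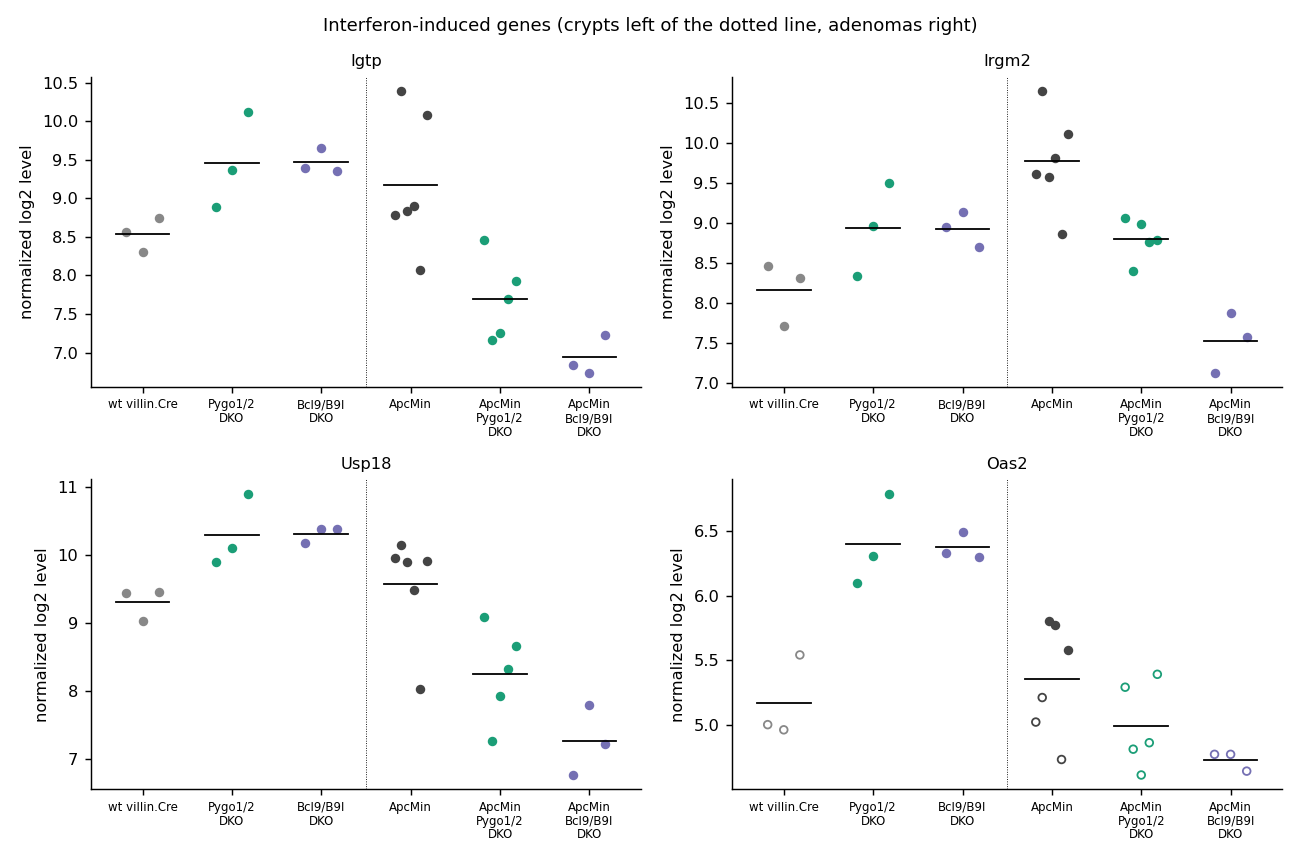
Normalised log2 levels of Igtp, Irgm2, Usp18 and Oas2 on each of the 23 arrays by group, with a bar at each group mean, filled points for detected and open points for undetected probes, and a dotted line between the 9 crypt and the 14 adenoma arrays. For Igtp, Usp18 and Oas2 all 6 DKO crypts stand above the 3 wt crypts, and the 3 Bcl9/B9l DKO adenomas stand below all ApcMin adenomas for Igtp, Irgm2 and Usp18.

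Most members of the wider interferon response list had effects of the same signs without passing by themselves. All 16 measured genes had an averaged tissue difference below 0, with a median of -1.38. Usp18 and Igtp passed 0.01 and 7 of 16 passed 0.05, against 0.881% of all probes with a negative difference. The other 5 were the ubiquitin-like modifier Isg15 (-2.50 ± 0.55, 0.0286), the oligoadenylate synthetase-like Oasl2 (-2.12 ± 0.49, 0.036), the guanylate-binding proteins Gbp3 (-1.99 ± 0.36, 0.0118) and Gbp2 (-1.26 ± 0.25, 0.0158), and the antiviral GTPase Mx2 (-0.91 ± 0.19, 0.0223). Median DKO effects were 0.80 (Pygo1/2) and 0.82 (Bcl9/B9l) in crypts and -0.87 and -0.88 in adenomas. In each tissue both DKOs were set against the same control arrays, so their medians are not independent of each other. Mx2 rose in Bcl9/B9l DKO crypts (0.85, 0.0432) as the only called member of either crypt effect, against 0.0701% of probes with a called rise in Bcl9/B9l DKO crypts (14 probes), while 22 probes (0.11%) fell there. In Bcl9/B9l DKO adenomas 3 of the 16 fell (Usp18, Igtp and Gbp2), against 547 probes (2.74%) that fell and 271 (1.36%) that rose. In Pygo1/2 DKO adenomas the immunoproteasome subunit Psmb9 alone fell (-1.13, 0.00577), against 101 probes (0.505%) that fell and 38 (0.19%) that rose.

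The sizes of these interferon differences varied little when 1 array was left out, while the calls often did not hold. Over the 23 arrays left out in turn, Igtp ran from -3.01 to -2.54 and lost its call in 14 cases, and Usp18 ran from -3.13 to -2.66 and lost it in 17. Oas2 ran from -1.91 to -1.62 and lost its call in 11 cases, and Irgm2 ran from -2.57 to -2.15 and lost it in 1. The highest adjusted p of each came without wt villin.Cre crypt replicate 2, at 0.0629 for Igtp, 0.0345 for Irgm2, 0.0653 for Usp18 and 0.057 for Oas2. Without that array none of the 16 listed genes passed 0.05, and without wt villin.Cre crypt replicate 3 the count was 4. With the Cre-free wt crypts as the crypt control in place of the villin.Cre crypts, the averaged differences were -2.20 for Igtp (0.0303), -1.91 for Irgm2 (0.0164), -2.34 for Usp18 (0.0259) and -1.31 for Oas2 (0.0303), and 4 of the 16 listed genes passed 0.05.

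Genes of MHC class II antigen presentation also had mostly negative averaged differences. Cd74, the invariant chain that escorts class II molecules, stood at 7.99, 7.65 and 7.22 in wt villin.Cre crypts, at 8.25, 8.08 and 7.75 in Pygo1/2 DKO and at 9.22, 9.89 and 8.62 in Bcl9/B9l DKO crypts. In adenomas it was far higher, from 12.56 through 13.21 to 13.81 in ApcMin, against 11.97, 11.96, 11.18, 11.02 and 11.49 in Pygo1/2 DKO and 12.24, 12.22 and 12.21 in Bcl9/B9l DKO. Every DKO adenoma lay below every ApcMin adenoma, and the Bcl9/B9l DKO crypts lay above all wt crypts. The averaged tissue difference of Cd74 was -2.31 ± 0.37 (0.00379), and its other probes gave -2.07 ± 0.35 (0.00615) and -1.89 ± 0.37 (0.0158). Of 9 class II genes 8 had a negative averaged difference (median -1.69), Cd74 alone passed 0.01 and 5 passed 0.05 (0.881% of all probes), the others being the class II chains H2-Ab1 and H2-Eb1 and the peptide exchange factors H2-DMb1 and H2-DMb2.

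In Bcl9/B9l DKO crypts the median class II effect was 1.34, and H2-Eb1 (1.48, 0.0335) and Cd74 (1.63, 0.0432) rose, against 0.0701% of all probes. In Pygo1/2 DKO crypts the median was 0.00, with 5 genes above and 4 below 0 and none called. In adenomas the median was -1.56 in Pygo1/2 DKO, where 7 of 9 fell (0.505% of all probes), and -0.94 in Bcl9/B9l DKO, where 8 of 9 lay below 0 and 1 (H2-DMb1) fell (2.74% of all probes). A difference between the DKOs was not called for Cd74 (-0.52 ± 0.45, 0.742), H2-Eb1 (-0.30 ± 0.39, 0.845) or H2-DMb1 (-0.97 ± 0.51, 0.507). Without wt villin.Cre crypt replicate 2, 1 class II gene passed 0.05, and without any 1 of 5 other arrays (wt villin.Cre crypt replicate 3, Pygo1/2 DKO crypt replicates 2 and 3, Bcl9/B9l DKO crypt replicate 2 and ApcMin adenoma replicate 3) the count was 3.

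Several T cell genes fell in DKO adenomas. In bulk samples such as these, fewer cells of a type and less RNA per cell cannot be told apart. Of 8 T cell and intraepithelial lymphocyte genes, 7 had a negative averaged tissue difference (median -1.86), none passed 0.01 and 5 passed 0.05, against 0.881% of all probes. These were the CD3 chains Cd3g (-2.10 ± 0.44, 0.0212), Cd3e and Cd3d, the cytotoxic granule protein Nkg7 (-2.09 ± 0.44, 0.022) and the chemokine Ccl5 (-2.36 ± 0.48, 0.0186). Ccl5 ran from 9.76 to 10.89 in ApcMin adenomas, from 7.45 to 9.29 in Pygo1/2 DKO and from 7.11 to 8.44 in Bcl9/B9l DKO adenomas, with no overlap, and from 8.97 to 10.50 over all crypts. Of the 8 genes 2 fell in Pygo1/2 DKO adenomas (0.505% of all probes) and 5 in Bcl9/B9l DKO adenomas (2.74% of all probes), with medians of -1.27 and -1.66. The median effects in crypts were 0.37 and 0.28, and no member was called there, as was so for nearly all probes. Without wt villin.Cre crypt replicate 2 none passed 0.05 in the averaged difference, without replicate 3 the count was 1, and without Pygo1/2 DKO crypt replicate 2, Bcl9/B9l DKO crypt replicate 2 or ApcMin adenoma replicate 1 or 2 it was 3. Without the detection filter none passed. Mean levels of the list per array ran from 7.71 to 8.96 in ApcMin adenomas and from 7.33 to 8.13 in wt crypts, so that these transcripts were present in both tissues.

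B and plasma cell genes were detected mainly in adenomas. Mzb1, a chaperone of antibody-secreting cells, ran from 9.48 to 11.33 in ApcMin adenomas, from 7.38 to 8.54 in Pygo1/2 DKO and from 7.61 to 8.86 in Bcl9/B9l DKO adenomas, and was below detection in all 9 crypts. Its averaged tissue difference was -2.20 ± 0.41 (0.0139). Tnfrsf17, the receptor BCMA of plasma cells, was detected in all 6 ApcMin adenomas and no other array, and was at least 1.68-fold lower in Pygo1/2 DKO adenomas (4.83e-05) and at least 1.52-fold lower in Bcl9/B9l DKO adenomas (0.00037). These were the 2 of 6 listed genes that passed 0.05 (median -1.05), against 0.881% of all probes. In each DKO adenoma group 3 of 6 fell, against 0.505% (Pygo1/2) and 2.74% (Bcl9/B9l) of all probes.

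Adcy4, an adenylyl cyclase, Tlcd2 and Mdm2, the ubiquitin ligase that degrades p53, also had called negative averaged differences. Tlcd2 was measured at 10.21, 10.20 and 10.08 in wt villin.Cre crypts, 10.67, 10.55 and 11.07 in Pygo1/2 DKO crypts and 10.43, 10.91 and 11.16 in Bcl9/B9l DKO crypts. It ran from 9.84 through 10.05 to 10.45 in ApcMin adenomas, against 9.46, 9.42, 9.74, 9.83 and 9.34 in Pygo1/2 DKO and 9.13, 8.79 and 8.81 in Bcl9/B9l DKO adenomas. No Tlcd2 value of a DKO group overlapped its control in either tissue, and the averaged difference was -1.48 ± 0.22 (0.00209), with -1.51 ± 0.32 (0.0235) and -1.31 ± 0.32 (0.0472) for its other probes. The Tlcd2 fall in adenomas was called (-0.84 ± 0.13, 0.000376) and the crypt effect was not (0.63 ± 0.17, 0.252). With the Cre-free wt crypts as control, none of the 3 genes was called, at -0.97 for Tlcd2 (0.0335), -1.28 for Adcy4 (0.0242) and -1.06 for Mdm2 (0.0166).

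Adcy4 was below detection in wt villin.Cre crypts and at least 1.21-fold higher in Pygo1/2 DKO crypts, a called rise (0.0475), with a bound of 1.18-fold in Bcl9/B9l DKO crypts (0.0571). Averaged over both DKOs Adcy4 rose in crypts by 1.01 ± 0.18 (0.0151). In adenomas the averaged effect on Adcy4 was -0.71 ± 0.14 (0.00303), and the tissue difference -1.73 ± 0.23 (0.000785). Its brighter probe gave -1.32 ± 0.25 (0.0145). Mdm2 rose in Pygo1/2 DKO crypts by 1.17 ± 0.19 (0.00376), from 9.28, 8.89 and 9.18 to 10.16, 10.54 and 10.17, while its effect in Pygo1/2 DKO adenomas was -0.25 ± 0.14 (0.402). For Mdm2 the average was -1.20 ± 0.21 (0.00842), but 2 other probes gave -0.48 ± 0.20 (0.236) and 0.00 ± 0.22 (0.999), so the value belongs to 1 probe of the gene. The averaged Mdm2 effect in adenomas was not called (-0.30 ± 0.13, 0.162).

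Each of the 3 probes with a positive averaged difference was undetected in whole groups. Myo18b, an unconventional myosin of muscle on chromosome 5, was below detection in all 6 ApcMin adenomas (4.56 to 4.92) and detected in every group with villin.Cre, at 7.12, 7.01 and 6.57 in wt villin.Cre crypts, 6.24 to 6.82 in DKO crypts and 6.79 to 7.62 in DKO adenomas. It was at least 2.81-fold higher in Pygo1/2 DKO adenomas (5.71e-10) and at least 3.88-fold in Bcl9/B9l DKO adenomas (2.07e-10), and the averaged difference was 2.88 ± 0.20 (3.2e-08). With the Cre-free wt crypts as control the value for Myo18b was 0.44 (0.272). Its presence therefore followed villin.Cre in all 6 groups.

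Sis, the sucrase-isomaltase of the enterocyte brush border, had a called difference by 1 of its probes. Probe ILMN_2746320 stood at 9.25, 9.12 and 10.48 in wt villin.Cre crypts and was below detection in all DKO crypts (4.54 to 5.11), at least 12.4-fold lower in Pygo1/2 DKO (9.53e-08) and 13.5-fold lower in Bcl9/B9l DKO (6.13e-08). In adenomas this Sis probe ran from 5.39 through 6.94 to 7.58 in ApcMin, detected on 5 of 6 arrays, and was below detection in all DKO arrays, at least 2.57-fold (8.09e-05) and 2.32-fold (0.000169) lower. Its averaged tissue difference of 2.67 ± 0.42 (0.00348) thus sets a large fall in crypts against a smaller fall in adenomas where the starting level was lower, and as all DKO arrays were undetected both falls are bounds and the sign of the difference is not fixed. The brighter Sis probe ILMN_3139952 stood at 14.16 to 14.55 in all crypts close to the top of the scale, where a change may not be measurable, and its averaged difference of -0.95 ± 0.52 (0.383) was not called. Sis lies on chromosome 3, as do Pygo2 and Bcl9.

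1700057G04Rik, on chromosome 9 with Pygo1 and Bcl9l, was detected in wt villin.Cre crypt replicates 1 and 2 (6.94 and 6.86) and on no other of the 23 arrays. It was at least 1.41-fold lower in Pygo1/2 DKO crypts (0.000384) and at least 1.54-fold lower in Bcl9/B9l DKO crypts (8.09e-05), and its averaged difference of 1.97 ± 0.25 (0.000475) was not called with the Cre-free control (0.116). Tmem25, a membrane protein gene also on chromosome 9, was below detection in all Bcl9/B9l DKO samples of both tissues and detected on the other 17 arrays. It was at least 7.71-fold lower in Bcl9/B9l DKO crypts (4.1e-10) and at least 2.61-fold in Bcl9/B9l DKO adenomas (1.08e-07). Its Bcl9/B9l tissue difference of 1.90 ± 0.33 (0.00374) compares falls from group means of 8.81 in crypts and 6.92 in adenomas to below detection, so both falls are bounds and neither the size nor the sign of the difference is fixed.

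**Figure D3:**
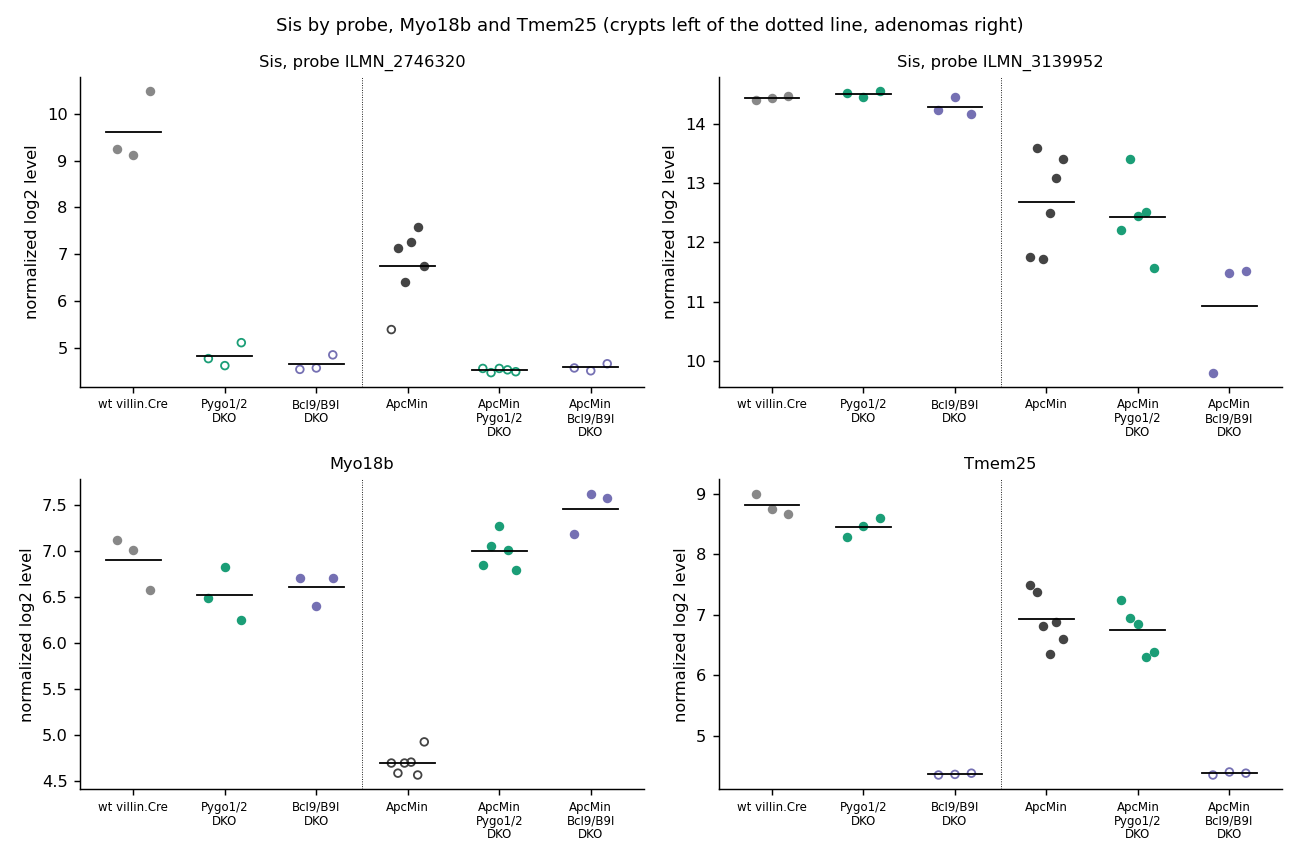
Normalised log2 levels of both Sis probes, Myo18b and Tmem25 on each of the 23 arrays by group, drawn as for the interferon genes. The dimmer Sis probe is undetected on all DKO arrays, Myo18b on all 6 ApcMin adenomas alone, and Tmem25 on all 6 Bcl9/B9l DKO arrays alone.

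For Pygo1/2 DKO alone, 10 probes had a called tissue difference, 3 positive (0.015%) and 7 negative (0.035%), 3 of them unnamed here. Of the 10 probes 7 also had a called crypt effect and 3 a called adenoma effect, both of which are parts of the tissue difference. Over all probes 16 (0.0801%) rose and 14 (0.0701%) fell in Pygo1/2 DKO crypts, and 38 (0.19%) rose and 101 (0.505%) fell in Pygo1/2 DKO adenomas. Among the named probes the largest values belonged to defensin-type genes of Paneth cells, the secretory cells at the crypt base that release antimicrobial peptides. Defa31 (probe ILMN_2524945) was detected in Pygo1/2 DKO crypts alone among crypts, at 11.19, 12.33 and 10.32, at least 43.3-fold above wt (5.12e-08), and in Pygo1/2 DKO adenoma replicates 2 and 3 (5.81 and 7.33). AY761185, another defensin-type transcript, stood at 9.57, 10.44 and 9.07 in Pygo1/2 DKO crypts, at least 14.4-fold above wt (9.78e-10), and at 5.52 and 5.90 in the same pair of adenomas. Their Pygo1/2 tissue differences were -5.99 ± 0.65 (2.61e-05) and -4.63 ± 0.39 (4.79e-07). Mdm2, described above, was the other named gene with a negative value (-1.42 ± 0.23, 0.00859).

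Alpha-defensins form a large family of near-identical copies on chromosome 8, so a probe can report related transcripts, and the gene names of these probes are uncertain. The other alpha-defensins went the opposite way. All 6 measured genes of the list had a positive averaged difference (median 2.10), none passed 0.01, and Defa26 (3.40 ± 0.67, 0.0158) and Defa21 (3.31 ± 0.83, 0.0491) passed 0.05, against 0.465% of all probes. Defa26 stood at 14.33, 14.34 and 14.43 in wt villin.Cre crypts and 13.06, 12.16 and 11.91 in Pygo1/2 DKO crypts, and ran from 9.12 through 10.88 to 12.34 in ApcMin and from 12.31 to 13.59 in Pygo1/2 DKO adenomas. Pygo1/2 DKO crypts thus lay below all wt crypts, and 3 of the 5 Pygo1/2 DKO adenomas (12.63 or more) lay above all ApcMin adenomas, yet neither effect was called (-1.99, 0.19 in crypts; 2.01, 0.0184 in adenomas).

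Myo18b (2.69 ± 0.23, 4.79e-07), 1700057G04Rik (1.83 ± 0.28, 0.00417) and Itga9 were the positive Pygo1/2 values. Itga9, an integrin chain on chromosome 9, was detected by probe ILMN_2749529 in the 5 Pygo1/2 DKO adenomas (5.64 to 6.46) and nowhere else, at least 1.5-fold above ApcMin (8.16e-07), with a tissue difference of 1.45 ± 0.23 (0.00423). Its brighter probe was detected in all adenomas and in no crypt and gave 0.33 ± 0.31 (0.667).

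Bcl9/B9l DKO alone gave 90 called tissue differences, 21 positive (0.105%) and 69 negative (0.345%), and 10 of these probes were unnamed here. Most of them could show an effect in adenomas alone. Of the 90 probes 55 were detected in no crypt, so that their larger effect had to lie in adenomas. Among the probes detected in crypts, 25 had effects of opposite sign and 10 of the same sign. Of the 25, 18 were higher in DKO crypts and lower in DKO adenomas, and 7 the reverse. Over all 90 probes, 83 had the larger effect in adenomas, 85 also had a called Bcl9/B9l effect in adenomas and 4 one in crypts. Among all 19981 probes, 818 had a called Bcl9/B9l effect in adenomas and 36 one in crypts, at unlike thresholds. The tissue difference contains both effects, so these overlaps and the split of signs partly follow from the selection.

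Mast cell genes made up the first group. Cpa3, a protease of mast cell granules, was below detection in all 9 crypts (4.44 to 4.59, probe ILMN_2991799) and ran from 8.76 through 9.42 to 10.41 in ApcMin adenomas. It stood at 8.57, 7.74, 7.28, 9.49 and 8.79 in Pygo1/2 DKO adenomas and was below detection in the Bcl9/B9l DKO adenomas (4.93, 4.63 and 4.96), at least 15.8-fold lower than in ApcMin (1.17e-08). Bcl9/B9l DKO was thus the only adenoma group without a Cpa3 signal. The probe had a Bcl9/B9l tissue difference of -4.66 ± 0.52 (3.33e-05) and an averaged difference of -2.90 ± 0.43 (0.0025). Other Cpa3 probes had averaged differences of -2.82 ± 0.46 (0.00436) and -0.66 ± 0.33 (0.323), the latter not called. Mcpt1, a chymase of mucosal mast cells, stood at 9.44 to 11.56 in ApcMin and 6.69, 5.64 and 5.32 in Bcl9/B9l DKO adenomas, the last of these not detected, with a difference of -4.57 ± 0.71 (0.00129). Fcer1a, a chain of the IgE receptor (-3.31 ± 0.57, 0.00311), and the tryptase Tpsb2 (-2.88 ± 0.52, 0.00515) were detected in no Bcl9/B9l DKO adenoma and were at least 7.85-fold and 3.64-fold lower there.

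Over the mast cell list 6 of 11 genes had a called negative Bcl9/B9l difference (Cpa3, Mcpt1, Cma2, Tpsb2, Fcer1a and the transcription factor Gata2), against 0.345% of probes, and the median was -2.22. In Bcl9/B9l DKO adenomas 8 of 11 fell (2.74% of all probes) and in Pygo1/2 DKO adenomas none did (0.505% of all probes). The mean level of the list per array was 7.50 to 8.75 in ApcMin, 6.85 to 7.98 in Pygo1/2 DKO and 5.66 to 5.76 in Bcl9/B9l DKO adenomas, and 4.93 to 5.24 over all crypts, where 8 or 9 of the 11 genes were detected on no array of a group. Kit (0.20 ± 0.45, 0.9), the receptor that mast cells share with other cells, had no called difference. The list count was 0 with the deposited log2 values, 2 with plain log2 values, 2 without filtering, and 2 or 3 without wt villin.Cre crypt replicate 1 or 2, Bcl9/B9l DKO crypt replicate 1 or 2 or Bcl9/B9l DKO adenoma replicate 3.

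Secreted defence genes formed the second group. Bpifb5, a member of the family of lipid-binding secreted defence proteins, was below detection in all crypts and ran from 9.93 through 10.69 to 12.13 in ApcMin adenomas and from 10.27 to 12.06 in Pygo1/2 DKO adenomas. It was below detection in all Bcl9/B9l DKO adenomas (4.43, 4.50 and 4.52), at least 39.2-fold lower (2.24e-10). The Bcl9/B9l tissue difference of Bpifb5 was -6.30 ± 0.57 (1.05e-06) and that of its relative Bpifb1 -4.41 ± 0.51 (4.83e-05). Lcn2, which binds bacterial siderophores, stood at 9.05 to 11.63 in ApcMin adenomas and 5.37, 6.91 and 6.65 in Bcl9/B9l DKO adenomas (-4.27 ± 0.69, 0.00193). The acute phase inhibitor Serpina3n (-4.16 ± 0.67, 0.00184) and lactoferrin, Ltf (-3.56 ± 0.56, 0.00151), completed the 5 of 24 listed genes with a called negative difference, against 0.345% of all probes. The epithelial oxidase Nox1 was the 1 called positive (2.27 ± 0.43, 0.00797), against 0.105% of all probes. A second, dimmer Ltf probe had an averaged difference of -0.59 ± 0.25 (0.248), against -1.98 ± 0.47 (0.0393) for the first.

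Nox1 was detected in the 3 Bcl9/B9l DKO adenomas alone (8.38, 7.09 and 6.63), at least 3.66-fold above ApcMin (4.08e-06). The list median was -1.17 for Bcl9/B9l DKO and 0.13 for Pygo1/2 DKO. The count of 5 was 2 with the deposited log2 values and 3 without filtering.

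**Figure D4:**
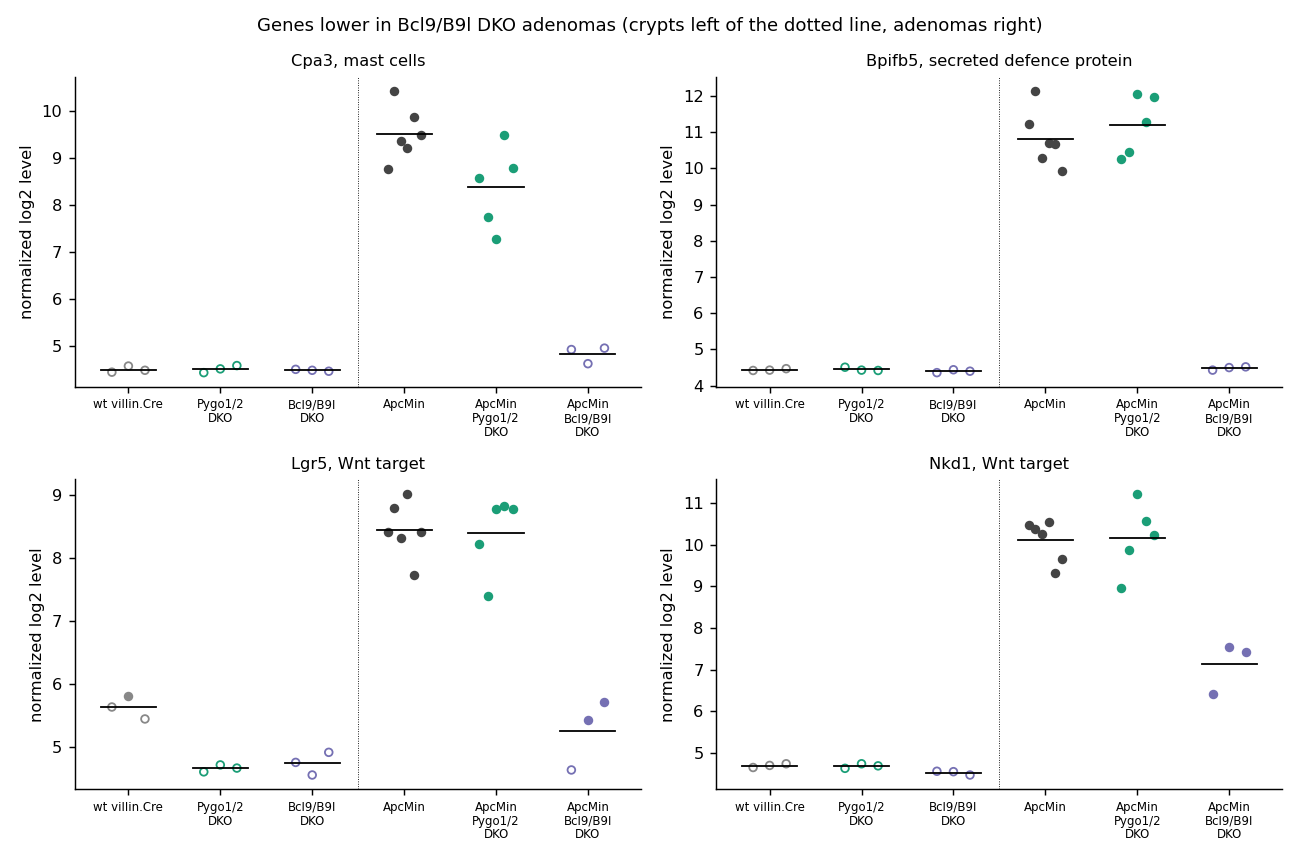
Normalised log2 levels of Cpa3, Bpifb5, Lgr5 and Nkd1 on each of the 23 arrays by group, drawn as for the interferon genes. All 4 genes are high in ApcMin and Pygo1/2 DKO adenomas and lower in each of the 3 Bcl9/B9l DKO adenomas, and Cpa3, Bpifb5 and Nkd1 are detected in no crypt.

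Wnt target genes split within the pathway. Lgr5, the receptor that marks stem cells of the crypt base, ran from 7.74 through 8.42 to 9.03 in ApcMin adenomas, stood at 8.23, 7.40, 8.79, 8.83 and 8.78 in Pygo1/2 DKO adenomas and at 4.64, 5.44 and 5.72 in Bcl9/B9l DKO adenomas. In crypts it was near the detection limit, at 5.64, 5.82 and 5.45 in wt villin.Cre crypts with 1 array detected and 4.56 to 4.92 in DKO crypts with none. Its Bcl9/B9l tissue difference was -2.30 ± 0.44 (0.00807), and the crypt effect of -0.89 ± 0.33 (0.836) started so close to background that a larger fall could not have been seen. Nkd1, a feedback inhibitor of the pathway, ran from 9.31 through 10.32 to 10.55 in ApcMin adenomas and stood at 6.41, 7.54 and 7.43 in Bcl9/B9l DKO adenomas, and was detected in no crypt (-2.81 ± 0.53, 0.00735). A second, dimmer Nkd1 probe was at least 1.27-fold lower in Bcl9/B9l DKO adenomas (0.0371), which was not called.

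With these, the homeobox factor Prox1 (-3.37 ± 0.52, 0.00128), the secreted Wnt inhibitor Wif1 (-3.29 ± 0.64, 0.00873) and the receptor Tnfrsf19 (-2.96 ± 0.41, 0.00036) made up the 5 of 17 Wnt target genes with a called negative Bcl9/B9l difference. None had a called positive one. Over all probes the shares were 0.345% negative and 0.105% positive. No member was called for Pygo1/2 DKO, as was so for nearly all probes, and the median there was 0.07 against -0.29 for Bcl9/B9l DKO. The feedback gene Axin2 did not follow, at 9.33 to 10.59 in ApcMin and 9.64, 10.62 and 10.35 in Bcl9/B9l DKO adenomas, with a tissue difference of 0.60 ± 0.41 (0.552). The transcription factor Sp5 had -0.21 ± 0.39 (0.875) and the stem cell factor Ascl2 1.56 ± 0.51 (0.137), with 0.80 ± 0.42 (0.411) by its other probe. Cd44, the hyaluronan receptor, rose in Bcl9/B9l DKO adenomas (1.02 ± 0.21, 0.00284) and had an averaged tissue difference of 1.18 ± 0.26 (0.0308). The count of 5 Wnt targets was 0 with the deposited log2 values, and 2 or 3 when any 1 of 14 arrays was left out, among them each wt villin.Cre crypt.

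Outside these lists, Neurog3, the factor that commits cells to the enteroendocrine lineage, stood at 7.99, 8.15 and 8.35 in Bcl9/B9l DKO adenomas, above the 4.92 to 5.97 of ApcMin adenomas and the 5.94 to 7.29 of Pygo1/2 DKO adenomas, and at 5.75 to 7.49 over all crypts. Its Bcl9/B9l tissue difference was 2.43 ± 0.44 (0.00512). It was the 1 called member of 8 Notch and secretory progenitor genes, against 0.105% of all probes with a called positive difference. Of 22 enteroendocrine genes none was called, although 6 rose in Bcl9/B9l DKO adenomas, against 1.36% of all probes. Among the 6 were the endocrine transcription factors Nkx2-2 (1.47, 2.8e-05), Insm1 (1.16, 0.000535) and Pax4 (0.70, 0.000522). Insm1 came closest to a call, with a Bcl9/B9l tissue difference of 1.31 ± 0.30 (0.0264). Gsta3, a glutathione transferase (2.67 ± 0.42, 0.00143), and the leukocyte integrin chain Itgad (2.55 ± 0.29, 4.2e-05) also had positive differences, and the second Itgad probe was at least 3.55-fold higher in Bcl9/B9l DKO adenomas (1.4e-07). Of the 4 sex-linked genes 3 moved with the sex of the adenomas, Eif2s3y by 4.80 ± 0.59 (7.82e-05), Kdm5d by 2.12 ± 0.33 (0.00131) and Xist by -4.36 ± 0.31 (4.71e-08), and Xist thereby also reached the averaged count. The Y-linked Uty was not called (0.78 ± 0.32, 0.257).

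The tissue differences of the 2 DKOs were also compared with each other. They differed for 85 probes, 20 with a higher value for Bcl9/B9l DKO (0.1%) and 65 with a lower value (0.325%), 6 of them unnamed here. In this comparison the control groups cancel, so that it sets the DKO adenomas and the DKO crypts against each other, and the sex of the Bcl9/B9l DKO adenomas remains in it. Defa31 (6.14 ± 0.70, 1.97e-05) and AY761185 (4.82 ± 0.42, 3.13e-07) differed through the Pygo1/2 DKO crypts. Bpifb5 (-6.67 ± 0.58, 3.13e-07), Bpifb1 (-5.51 ± 0.52, 1.32e-06), Serpina3n (-4.46 ± 0.68, 0.000813), Lcn2 (-4.16 ± 0.70, 0.00223), Ltf (-3.16 ± 0.57, 0.00441), Cpa3 (-3.51 ± 0.53, 0.000796), Lgr5 (-3.22 ± 0.45, 0.000313), Nkd1 (-2.89 ± 0.54, 0.00607), Prox1 (-3.06 ± 0.53, 0.00267) and Tnfrsf19 (-2.75 ± 0.41, 0.000737) differed through the Bcl9/B9l DKO adenomas.

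Tesc, the calcium-binding protein tescalcin, was detected in no crypt and ran from 8.28 through 9.23 to 9.50 in ApcMin adenomas and from 9.20 to 10.24 in Pygo1/2 DKO adenomas, against 5.44, 5.80 and 5.57 in Bcl9/B9l DKO adenomas (difference between the DKOs -4.20 ± 0.34, 1.26e-07). Acta1, the skeletal muscle actin, stood at 8.52, 9.24 and 8.99 in Bcl9/B9l DKO adenomas and 5.59 to 6.78 in all other adenomas, and at 7.37 to 9.06 in crypts (2.84 ± 0.53, 0.00598). Itgad differed by 2.95 ± 0.30 (3.34e-06). For the interferon genes the DKOs were not called different, with -0.77 ± 0.59 for Igtp (0.697), -1.27 ± 0.46 for Irgm2 (0.252), -1.01 ± 0.61 for Usp18 (0.577) and -0.24 ± 0.35 for Oas2 (0.869), and the width of these errors does not show that the DKOs act alike.

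Among the other cell type lists the enterocyte genes leaned to lower values and the crypt-base and proliferation genes to higher values, with no member passing 0.01 in the averaged difference. Of 21 enterocyte genes 20 had a negative averaged difference (median -0.97), and 4 passed 0.05, against 0.881% of all probes. These were the apolipoprotein Apoa4 (-0.92 ± 0.22, 0.042), the lipid transfer protein Mttp (-1.24 ± 0.30, 0.045), the retinol-binding protein Rbp2 (-0.97 ± 0.24, 0.0454) and the brush border enzyme Treh (-1.31 ± 0.33, 0.0476). In Bcl9/B9l DKO adenomas 10 of the 21 fell (2.74% of all probes) and in Pygo1/2 DKO adenomas 1 did (0.505%), while none was called in crypts. The count of 4 dropped to between 0 and 2 without any 1 of 16 of the 23 arrays, among them all 3 wt villin.Cre crypts. It was 0 without the detection filter. Without the probes of chromosomes 3 and 9 it was also 0, but this removed called members themselves, among them Apoa4 (chromosome 9) and Mttp (chromosome 3). That last count therefore does not measure how stable the calls are. The differences themselves moved little, that of the Apoa4 probe with the smallest p (-1.59 ± 0.34, 0.0261) between -1.73 and -1.50 over the arrays left out. The brightest Apoa4 probe was close to the top of the scale in all crypts (14.44 to 14.64), where a change may not be measurable.

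All 11 crypt stem cell genes had a positive averaged difference (median 0.82), as had 15 of 16 proliferation genes (median 0.60) and 9 of 10 other Paneth cell genes (median 0.85), none of them called at 0.05. Olfm4, a secreted glycoprotein of crypt-base stem cells, stood at 10.21, 10.87 and 10.52 in wt villin.Cre crypts, 9.74, 9.37 and 8.98 in Pygo1/2 DKO crypts and 10.50, 9.58 and 11.26 in Bcl9/B9l DKO crypts. In adenomas Olfm4 ran from 6.21 through 8.49 to 9.13 in ApcMin, from 7.98 to 9.74 in Pygo1/2 DKO and from 9.96 to 10.66 in Bcl9/B9l DKO, where it rose (2.19 ± 0.52, 0.00962). Its averaged tissue difference was 2.18 ± 0.66 (0.0986), which did not pass. Ang4, an antimicrobial ribonuclease of Paneth cells, had the largest averaged value of its list (2.69 ± 0.82, 0.1). In these lists the medians of the Pygo1/2 DKO effect were negative in crypts (-0.79, -0.62 and -1.03) and positive in adenomas (0.34, 0.33 and 0.46), whereas those of Bcl9/B9l DKO were -0.08, -0.07 and -0.05 in crypts and 0.44, 0.21 and 0.41 in adenomas. The 49 ribosomal protein genes, a list taken from the study and so not independent evidence, had a median of 0.40 with 46 above 0. Of them 1 was called at 0.05 (0.465% of all probes). The 17 histone H2A genes, also from the study, had a median of 0.42 with none called. The 6 red blood cell genes had a median of 1.23 and none was called. Fcgbp, a mucus protein of goblet cells, rose in Bcl9/B9l DKO crypts (1.40, 0.0201) and not in adenomas (-0.08, 0.887), with an averaged difference of -1.17 ± 0.28 (0.0418). Goblet cell (17 genes), myeloid (15), fibroblast and matrix (19), smooth muscle (9), endothelial (11) and tuft cell (6) genes had no member called at 0.01, with medians between -0.60 and 0.51.

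**Figure D5:**
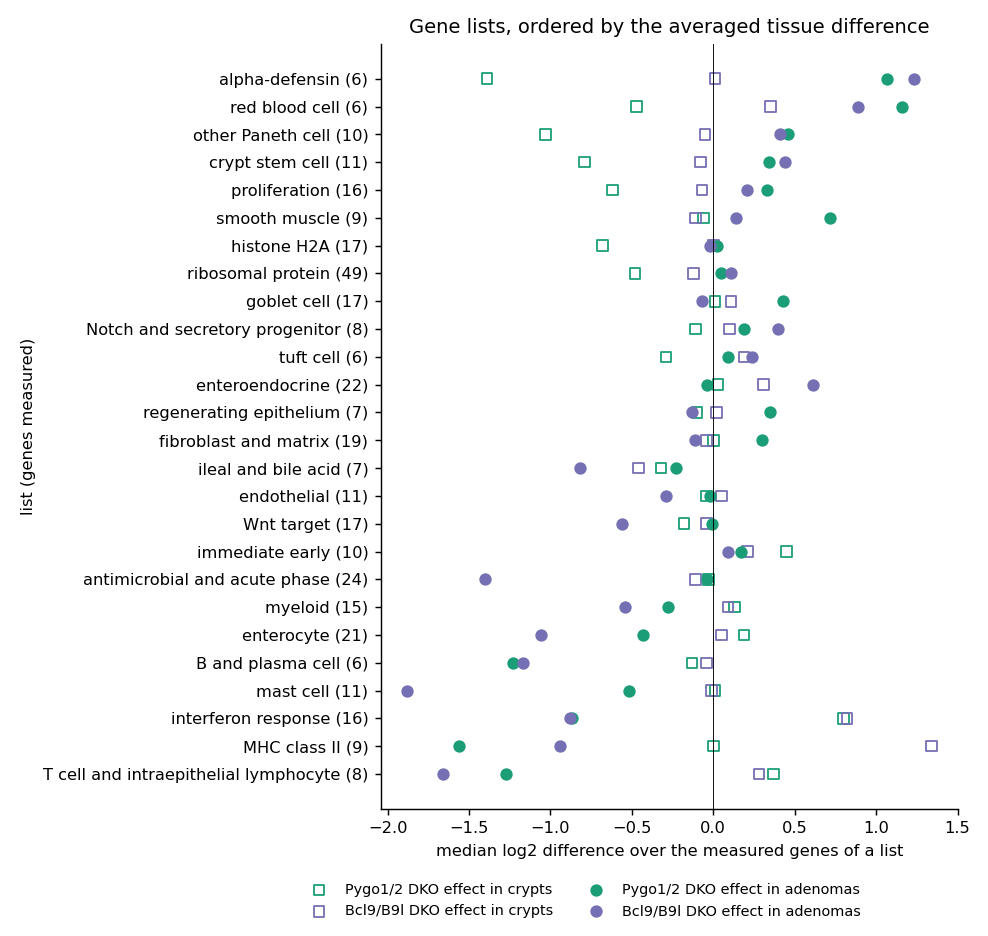
Median DKO effects over the measured genes of 26 lists, as log2 differences, with open squares for crypts and filled circles for adenomas in the colours of the 2 DKOs, and lists ordered by their averaged tissue difference. The interferon response medians are 0.80 and 0.82 in crypts and -0.87 and -0.88 in adenomas, and the median averaged tissue differences run from -1.86 for the T cell genes to 2.10 for the alpha-defensin genes. Both DKOs share the control arrays of a tissue.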

How the data were processed

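RNA of crypts and adenomas was hybridised to 1-colour MouseWG-6 v2.0 bead arrays with 45281 probes. The authors exported the deposited probe intensity values and detection p-values from GenomeStudio 2011.1 without background correction or normalisation. Their deposited log2 values (20824 probes) had been filtered on detection, variance-stabilised, quantile normalised and batch-adjusted by the authors, and served as an alternative. Processing notes of the submitters also name limma 3.34.9.

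Here intensities of the 23 arrays were background-corrected by normexp from the detection p-values (offset 16) and quantile normalised in limma 3.58.1 (R 4.3.3), and 19981 probes detected on 1 or more arrays (p under 0.01) were kept. A linear model with 1 mean for each of 6 groups (17 residual degrees of freedom) and empirical Bayes moderation gave each contrast, with Benjamini-Hochberg adjustment. The script was tested on simulated data. Lists used the brightest probe of each gene; named genes were represented by the probe with the smallest p. Named genes were the 10 most positive and 10 most negative called in the averaged difference (5 and 5 for each other comparison) among named probes detected on every array of a group, up to 4 members of each list by smallest p, the targeted genes, sex-linked genes and Lgr5, Axin2, Nkd1, Sp5, Ascl2 and Cd44; 1700057G04Rik, AY761185, Tmem25, Nox1 and the list members Cd3e, Cma2, Gata2, H2-Ab1, Isg15, Kit, Mx2, Oasl2 and Psmb9 were chosen after their values were seen. A bound compares the mean of the higher group with, for each array of the lower group, the higher of its lowest detected signal and the probe's own value. Of the tested probes 17001 had a gene name. Groups, members and the 30 gene lists were chosen with earlier results of these data known. Arrays labelled batch 2 and, except as an alternative control, the 3 wt crypts without Cre were not used. Array number limits the precision.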

Additional observations from a re-analysis of the deposited data

Results flagged for a closer look

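Averaged over both DKOs, the test of the difference itself gave a call for Igtp (-2.78), Irgm2 (-2.38), Usp18 (-2.82), Oas2 (-1.72), Cd74 (-2.31), Adcy4 (-1.73), Tlcd2 (-1.48), Cpa3 (-2.90), Mdm2 (-1.20), Xist (-1.85), Sis (2.67), 1700057G04Rik (1.97) and Myo18b (2.88). The sign is not fixed for Sis, and 1700057G04Rik was detected in wt villin.Cre crypts alone. Other Mdm2 probes did not share its call, Myo18b followed villin.Cre and Xist moved with the sex of the adenomas. Each gene is listed here under 1 comparison only, so Bpifb5 and AY761185, also called in the average, stand below. For Pygo1/2 DKO the same test called a difference for Itga9 (1.45), beside Defa31, AY761185, Mdm2, Myo18b and 1700057G04Rik as described above. For Bcl9/B9l DKO it did so for Bpifb5 (-6.30), Bpifb1 (-4.41), Lcn2 (-4.27), Ltf (-3.56), Serpina3n (-4.16), Mcpt1 (-4.57), Tpsb2 (-2.88), Fcer1a (-3.31), Lgr5 (-2.30), Nkd1 (-2.81), Prox1 (-3.37), Wif1 (-3.29), Tnfrsf19 (-2.96), Nox1 (2.27), Neurog3 (2.43), Gsta3 (2.67), Itgad (2.55), Eif2s3y (4.80) and Kdm5d (2.12). Between the DKOs the tissue differences of Defa31 (6.14), AY761185 (4.82), Acta1 (2.84) and Tesc (-4.20) differed.

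In 7 of the 126 groups of levels examined, 1 array lay far from the others of its group, and chance gives about 1 in 20. These were Usp18 in ApcMin adenoma replicate 7 (8.03, the next at 9.48), Mttp in ApcMin adenoma replicate 5 (10.16, the next at 10.64), Tpsb2 in ApcMin adenoma replicate 2 (8.72), Clps in ApcMin adenoma replicate 7 (11.32), Tesc in ApcMin adenoma replicate 9 (8.28), Xist in Pygo1/2 DKO adenoma replicate 2 (10.27, the next at 9.38) and Pygo2 in Pygo1/2 DKO adenoma replicate 1 (9.55, the next at 9.07).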

How the results depend on the processing

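The averaged tissue difference was called for 21 probes, the Pygo1/2 difference for 10, the Bcl9/B9l difference for 90 and the difference between the DKOs for 85. With the deposited log2 values the Bcl9/B9l count was 34 and the difference between the DKOs 49. Without the detection filter the averaged count was 7 and the Bcl9/B9l count 41. With array weights the counts were 210, 130, 218 and 172, and at an adjusted p under 0.05 they were 269, 96, 325 and 204. Leaving out 1 array at a time gave 7 to 56 averaged, 7 to 18 Pygo1/2, 48 to 118 Bcl9/B9l and 58 to 121 between the DKOs. The averaged count was 11 without wt villin.Cre crypt replicate 1, 7 without replicate 2, 56 and 55 without ApcMin adenoma replicate 5 or 7, 36 and 33 without Pygo1/2 DKO adenoma replicate 2 or 3, and 43 without Bcl9/B9l DKO adenoma replicate 2. The Bcl9/B9l count was 53, 48 and 54 without wt villin.Cre crypt replicate 1, 2 or 3 and 50 and 49 without Bcl9/B9l DKO crypt replicate 1 or 2, and the Pygo1/2 count was 18 without ApcMin adenoma replicate 7. The causes were not tested. The replicate numbers were not used as pairs. The 46 same-numbered pairs correlated between -0.29 and 0.43 with a median of 0.05, against a median of 0 for differently numbered pairs. With so few arrays per group this check cannot exclude a pairing, and a fit with the replicate number as a block gave 58, 17, 98 and 48. With the Cre-free wt crypts as control, 2 values of genes that were not called changed sign, Ctcfl (1.38 to -1.67, 0.19) and Pygo1 (-0.15, 0.838). Of 1285 alternative values for 37 called genes 1037 kept their side of the threshold, 248 lost it and 0 reversed. Part of this count was fixed in advance, as the setting with a threshold of 0.05 reused the same fit and kept every called gene. The fits with 1 array left out also share all their other arrays with the main fit. Leaving out chromosomes 3 and 9, gave 15, 8, 76 and 71; this and the counts of list members under left-out arrays were chosen after seeing the data. A fit with sex as a covariate was not run, because sex was constant within each group. Signals near background limit the low side of Sis, Lgr5, Cpa3 and Bpifb5.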
